A study of Homo sapiens with 6 samples.

Results

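The genes described here are the lactate dehydrogenases LDHA, LDHB and LDHC, the monocarboxylate carriers SLC16A1, SLC16A3 and SLC16A7, and basigin (BSG), which carries the carriers to the cell surface. They were taken by official symbol from the table of counts per gene, and all 7 were found among its 19240 genes. Cells of A549, a long-established line from a human lung carcinoma, were kept in medium with 25 mM glucose or lacking glucose for 48 h. Each of these groups had 3 libraries, read from the 3' ends of transcripts. The series' title places the comparison in the setting of PCK2 and tumor growth that does not need glucose. The labels give no other difference between the groups and do not say whether each library had a culture of its own, so a p-value here speaks of spread from library to library, possibly technical.

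Lactate dehydrogenase turns pyruvate into lactate and back, with NADH as the partner, and so gives glycolysis back the NAD+ it consumes. The enzyme is a tetramer built from the products of LDHA (the M chain, rich in muscle and many tumors) and LDHB (the H chain, rich in heart), while LDHC is the testis form. Lactate and pyruvate cross the plasma membrane together with a proton through MCT1 (SLC16A1), MCT2 (SLC16A7), which has a high affinity and is linked with uptake, and MCT4 (SLC16A3), which is linked with export from glycolytic cells and is induced in hypoxia. MCT1 and MCT4 need basigin, an immunoglobulin-domain glycoprotein, to reach the membrane, and MCT2 pairs mainly with embigin (EMB).

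Without glucose LDHA fell and SLC16A1 rose, while LDHB, SLC16A3, SLC16A7 and BSG did not pass the test. LDHA went from 1059 ± 46.8 to 631.0 ± 29.6 CPM (CPM, mean ± SD, n = 3 per group). SLC16A1 went from 93.4 ± 12.0 to 155.7 ± 33.9 CPM. The make-up of the LDH transcripts moved with this: LDHA held 58.0% ± 3.32 of the LDH counts with glucose and 42.6% ± 0.215 without it (SD, n = 3 per group). Of the 6 members with enough counts to be tested, 1 rose and 1 fell by the edgeR quasi-likelihood test at an adjusted p under 0.05, beside 11.6% of all 11886 tested genes that rose and 10.7% that fell. The CPM of the groups did not overlap for 3 of the 6, LDHA, SLC16A1 and BSG, beside 40.4% of all tested genes. In bulk RNA, fewer cells with a transcript and less of it per cell cannot be told apart. LDHC was left out by the filter on low counts.

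The total of gene counts was 6701004 to 14259943 in the libraries with glucose and 11086416 to 14060313 in those without. On the second principal component, which held 17.6% of the variance, replicate 1 with glucose (score 38.6) stood apart from replicates 2 and 3 of its group (−23.9 and −19.9). It was also the library with the fewest gene counts (6701004). The libraries without glucose were spread on this component too, at −19.3, 20.2 and 4.25 for replicates 1, 2 and 3. As for the cell line, 5 of 5 epithelial markers and 9 of 9 genes of the NRF2 program that is active in A549 were detected. Their summed levels were 3117 to 3894 and 12423 to 13674 CPM with glucose, and 1511 to 1820 and 9098 to 10431 CPM without. Markers of other cells were scarce. Leukocyte, endothelial and alveolar type II markers summed to at most 1.70, 0.848 and 1.07 CPM in a library, and CD3E, VWF, SFTPC and SFTPA1 were at 0 in all 6. Fibroblast markers summed to 10.7 to 14.2 CPM with glucose and 4.21 to 5.38 without, nearly all COL1A1, while COL1A2 and DCN were at 0. Of the marker genes tested, 2 of 5 epithelial and 4 of 9 NRF2 genes fell, as did COL1A1, and none rose. Among all tested genes 10.7% fell and 11.6% rose. The leukocyte marker CD14 had 36 counts with glucose and 3 without, and reached the filter on low counts in the group with glucose alone; the part of these shifts in the results below was not tested.

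The start regions of LDHA and LDHB are shown because these genes code for chains of the same enzyme, and LDHA passed the test while LDHB did not. RefSeq (GRCh38.p14) lists 13 start windows of 300 bases for 6 of the 7 members, each with 250 bases before and 50 after a start; the exception is SLC16A1. Motifs were searched on both strands: the core of the hypoxia response element (ACGTG), the E-box bound by MYC and MondoA-type factors (CACGTG, which contains that core), the composite site of ATF4 (TGATGNAA) and the endoplasmic reticulum stress element ERSE. Capitals mark a match to any of them.
LDHA, first start, chr11:18394313-18394612, plus strand: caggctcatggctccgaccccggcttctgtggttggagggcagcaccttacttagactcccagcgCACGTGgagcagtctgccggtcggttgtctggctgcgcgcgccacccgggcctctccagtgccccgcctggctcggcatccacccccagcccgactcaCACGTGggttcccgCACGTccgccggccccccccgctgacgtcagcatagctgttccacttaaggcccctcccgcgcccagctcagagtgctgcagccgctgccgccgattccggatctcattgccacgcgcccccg
LDHA, second start, chr11:18396101-18396400, plus strand: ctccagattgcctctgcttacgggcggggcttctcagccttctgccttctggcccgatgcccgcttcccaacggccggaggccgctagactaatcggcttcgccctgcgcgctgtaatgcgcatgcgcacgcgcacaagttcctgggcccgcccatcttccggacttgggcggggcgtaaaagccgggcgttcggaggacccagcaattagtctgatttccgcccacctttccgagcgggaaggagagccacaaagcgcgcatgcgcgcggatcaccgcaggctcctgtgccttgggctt
LDHB, chr12:21657793-21658092, minus strand: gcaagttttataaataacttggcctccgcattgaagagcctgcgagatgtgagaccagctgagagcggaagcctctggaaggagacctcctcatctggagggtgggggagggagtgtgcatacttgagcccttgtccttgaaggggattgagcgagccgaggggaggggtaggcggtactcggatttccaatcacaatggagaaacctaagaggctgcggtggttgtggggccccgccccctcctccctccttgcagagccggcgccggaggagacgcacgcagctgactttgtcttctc
The first LDHA window had 3 separate matches. Of these, 2 were E-boxes, beginning 185 and 87 bases before the start, and the third was a hypoxia core without an E-box, beginning 73 bases before it. Neither the second LDHA window nor the LDHB window matched any of the 4 motifs. Over the 13 windows of the members, 4 held the hypoxia core, namely the first of LDHA, the LDHC window and 1 window each of SLC16A3 and BSG; 2 held an E-box (LDHA and BSG). Of all 35116 such windows in the RefSeq table, 21.4% held the hypoxia core, 7.26% the E-box, 3.62% the ATF4 composite and 0.0769% the stress element. A match is a run of letters and not a measured binding site, and the counts do not tell which LDHA start was used.

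**Figure D1:**
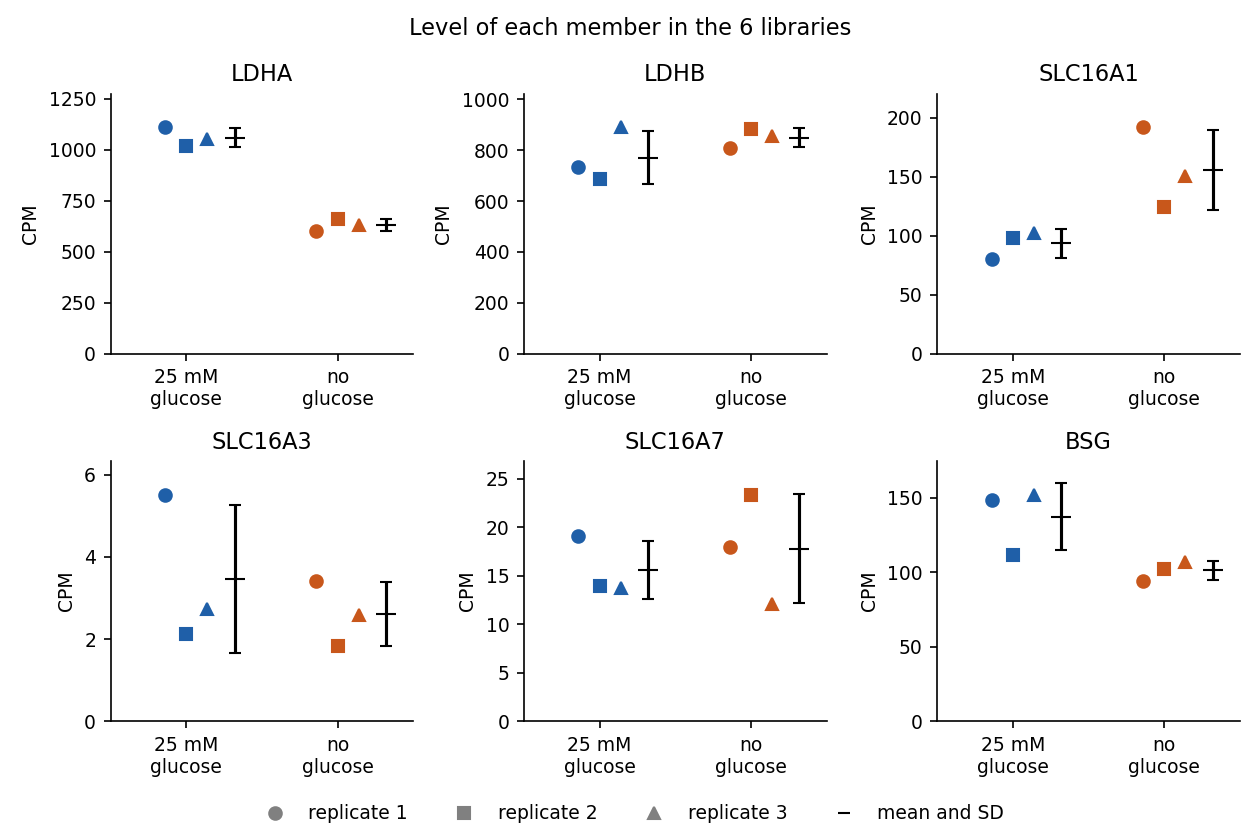
Level of 6 members in CPM (vertical axis, from 0), with a marker for each replicate and the mean and SD (bars) of 3 libraries; LDHC, with 2 counts in each group, is not drawn. LDHA sits between 1017 and 1109 with glucose and between 602 and 661 without, the SLC16A1 groups are apart in the other direction, and the groups of LDHB, SLC16A3 and SLC16A7 overlap.

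LDHA (Entrez 3939) stood at 1109, 1017 and 1051 CPM in replicates 1, 2 and 3 with glucose and at 602, 661 and 629.8 CPM without. Every library without glucose was below every library with it, and the spread inside each group was small. This 1.68-fold lower level (log2 fold change −0.75 ± 0.18, SE) passed the edgeR test at an adjusted p of 0.0110. Its log2 fold change was lower than that of all but 12.3% of the tested genes. Without replicate 1 with glucose, which stood apart from its group on the second component, the values were −0.71 and an adjusted p of 0.0191 (edgeR).

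LDHB (Entrez 3945), the chain of heart-type LDH, was at 735, 688 and 889.7 CPM with glucose and at 808, 885 and 857 CPM without. The groups overlapped, since replicate 3 with glucose lay above all 3 libraries without glucose. Its log2 fold change was 0.14 ± 0.19 (SE), and it did not pass (adjusted p = 0.623, edgeR). The testis form LDHC (Entrez 3948) had 2 counts over the libraries with glucose and 2 over those without, in both cases all in replicate 2. Both are under the floor of 3 counts, so no change was detectable at this depth.

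The LDHA share of the LDHA, LDHB and LDHC counts does not depend on how libraries are scaled. With glucose it was 60.1%, 59.6% and 54.2% in replicates 1, 2 and 3, and without glucose 42.7%, 42.8% and 42.4%. The groups did not overlap, and the 3 libraries without glucose lay within their counting error of each other (Wilson 95% intervals of 41.9% to 43.5%, 42.1% to 43.5% and 41.7% to 43.0%). With glucose, replicate 3 (53.6% to 54.7%) lay outside the intervals of replicates 1 and 2 (59.3% to 61.0% and 58.9% to 60.4%). The mean share without glucose was lower by a difference of −15.4 percentage points, with p = 0.1 by the two-sided exact permutation test. That is the smallest p that 3 against 3 libraries allow, and it was 0.133 adjusted over the 8 shares, ratios and sums tested. Put as a ratio, there were 1.38 LDHA counts per LDHB count with glucose and 0.742 without (geometric means). The summed level of the LDH genes was 1845, 1705 and 1941 CPM with glucose and 1410.4, 1546 and 1487 CPM without, a 1.23-fold lower mean without overlap (exact permutation p = 0.1). The share, the ratio and the sum all draw on the LDHA counts, and LDHB did not pass. They are thus not separate from the result for LDHA. Reads were counted at 3' ends and not per length, so a share says how counts divide between the genes and not how the proteins do.

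SLC16A1 (Entrez 6566), the gene of MCT1, was at 79.8, 98.2 and 102.3 CPM with glucose and at 191.8, 124 and 151 CPM without. The groups did not overlap, but the libraries without glucose differed among themselves, with replicate 1 the highest and replicate 2 the lowest. On the log2 scale SLC16A1 was higher by 0.74 ± 0.22 (SE; adjusted p = 0.0306, edgeR). This call rested on having all libraries: the gene missed the threshold on leaving out replicate 1, 2 or 3 with glucose (edgeR adjusted p = 0.0738, 0.0798 and 0.0640) or replicate 1 or 3 of the starved cells, those without glucose (0.114 and 0.0749). It passed without replicate 2 of the latter (0.0248), and the log2 fold change stayed between 0.56 and 0.86. SLC16A1 overlaps the antisense gene SLC16A1-AS1, and as the strand setting of the counting is not given, reads of the pair cannot be told apart.

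SLC16A3 (Entrez 9123), the gene of MCT4, had few counts in these cells. There were 39, 22 and 39 counts with glucose and 36, 24 and 35 without, in replicates 1, 2 and 3, or 5.51, 2.11 and 2.74 against 3.41, 1.84 and 2.58 CPM. Of the tested genes, 11.5% had a lower mean CPM. The log2 fold change was −0.38 ± 0.45 (SE; adjusted p = 0.578, edgeR). It was 0.09 without replicate 1 with glucose, the highest library. The ratio of pooled counts, without over with glucose, was 0.810, with an exact 95% interval of 0.605 to 1.08 for counting error alone.

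SLC16A7 (Entrez 9194), the gene of MCT2, was at 19.1, 13.9 and 13.8 CPM with glucose and at 18.0, 23.3 and 12.1 CPM without. The group without glucose held both the highest and the lowest of the 6 values. Its log2 fold change was 0.20 ± 0.27 (SE; adjusted p = 0.627, edgeR), and −0.06 when replicate 2 of the starved cells was left out. That library had the highest SLC16A7 and the lowest SLC16A1 of its group.

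Among the carrier counts SLC16A1 held 76.5%, 86.0% and 86.1% with glucose and 89.9%, 83.2% and 91.2% without. These shares overlapped, and the difference of 5.26 percentage points had p = 0.3 (exact permutation, two-sided). It was 2.07 points without replicate 1 with glucose. Counting error was 1.17 to 3.05 points on either side of a library's share (Wilson 95% intervals). The SLC16A3 share was 5.28%, 1.85% and 2.31% with glucose and 1.60%, 1.23% and 1.56% without, where the groups did not overlap (exact permutation p = 0.1). These SLC16A3 shares rest on 22 to 39 counts per library. Their denominator is mostly SLC16A1, which was higher without glucose, while SLC16A3 itself did not pass. The lack of overlap is thus no separate result on SLC16A3. The Wilson 95% intervals of replicates 2 and 3 with glucose (1.23% to 2.79% and 1.69% to 3.14%) overlapped those without (1.16% to 2.21%, 0.826% to 1.82% and 1.12% to 2.16%). For SLC16A7 the shares were 18.3%, 12.2% and 11.6% against 8.45%, 15.6% and 7.29%. The summed carrier level was 104.4, 114 and 119 CPM with glucose and 213, 149.6 and 166 CPM without, a 1.55-fold higher mean without overlap (exact permutation p = 0.1). SLC16A1 made up most of this sum in every library, so the rise of the sum is no separate result.

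BSG (Entrez 682), the carriers' partner at the membrane, did not rise with SLC16A1. It was at 149, 111 and 152 CPM with glucose and at 94.2, 102.5 and 107 CPM without. The groups were apart, as in 40.4% of all tested genes, but replicate 2 with glucose lay close to the group without glucose. The log2 fold change was −0.44 ± 0.20 (SE), and the gene did not pass (adjusted p = 0.135, edgeR). Per carrier count (SLC16A1, SLC16A3 and SLC16A7 together) there were 1.42, 0.975 and 1.28 BSG counts with glucose and 0.442, 0.685 and 0.647 without. The geometric mean of this ratio was 2.09-fold lower without glucose, with no overlap (p = 0.1, exact permutation, the smallest possible). BSG and the summed carrier level were each already apart, in opposite directions. The lack of overlap in their ratio follows from that and is no separate result.

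**Figure D2:**
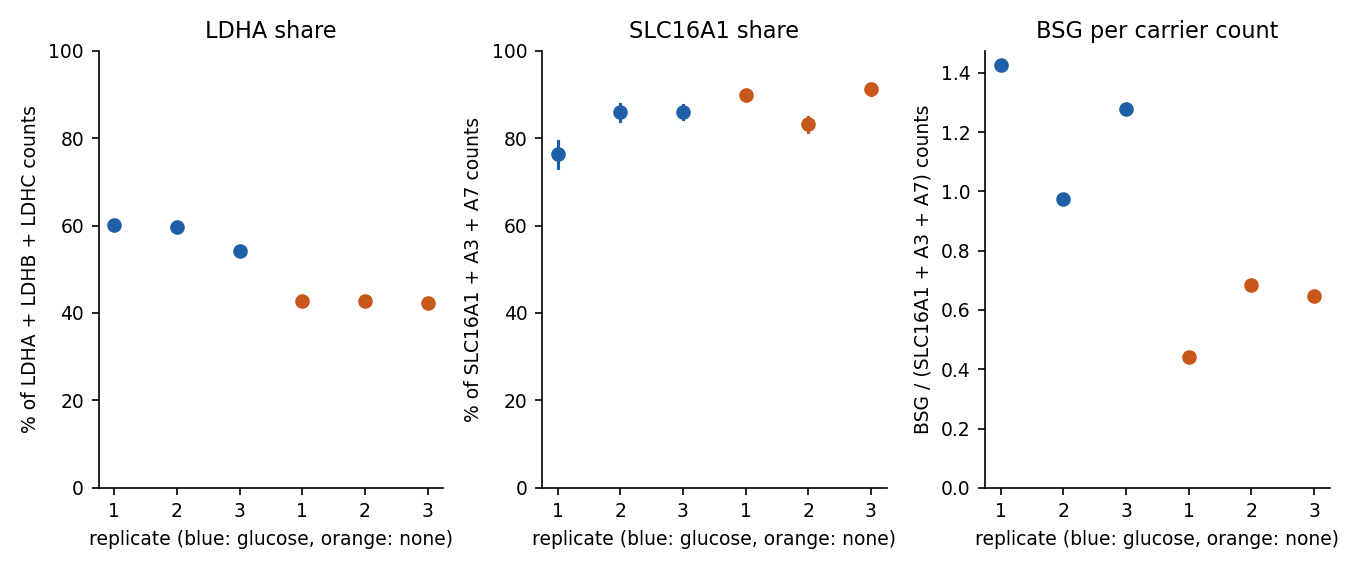
Share of LDHA among LDH counts and of SLC16A1 among carrier counts, in percent with Wilson 95% intervals (lines, in places smaller than the points), and BSG counts per carrier count, for each of the 6 libraries. LDHA shares of 54.2% to 60.1% with glucose (blue) lie above 42.4% to 42.8% without (orange), the SLC16A1 shares overlap, and the BSG ratios do not.

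**Figure D3:**
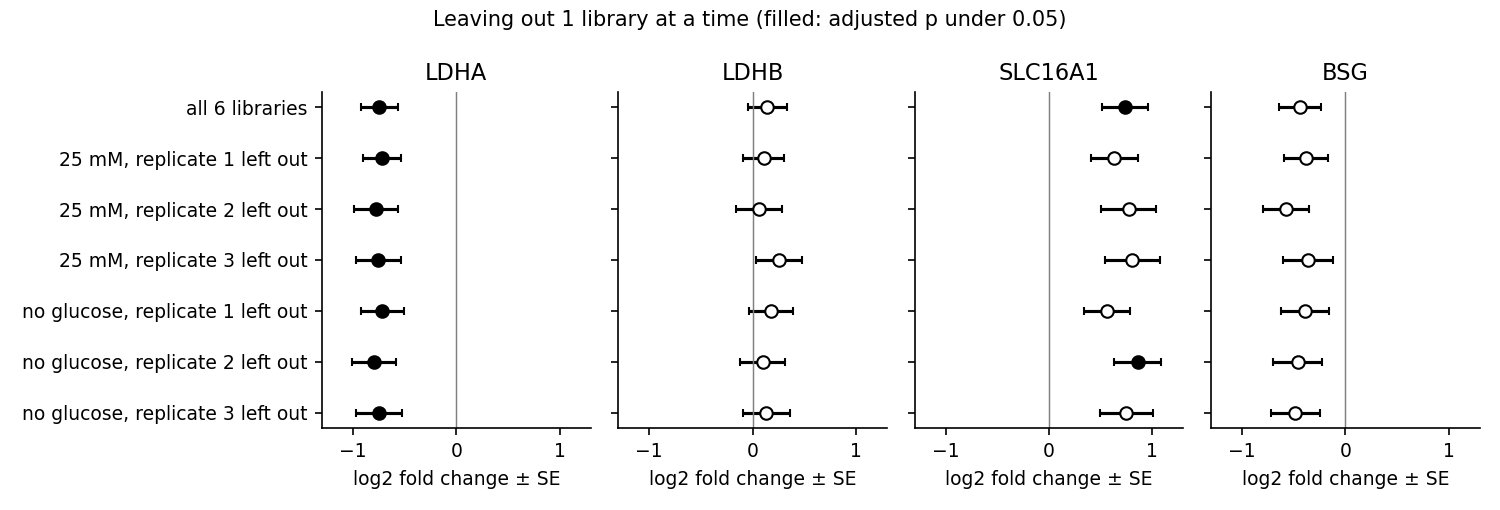
Log2 fold change of LDHA, LDHB, SLC16A1 and BSG (horizontal axis, with SE as bars) from all 6 libraries and with 1 library left out at a time; filled points have an adjusted p under 0.05 by edgeR. LDHA is filled in every row, with adjusted p from 0.0191 to 0.0453 on leaving out a library; SLC16A1 is filled with all libraries and when replicate 2 of the starved cells is left out.

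Among the other carriers of the family SLC16A4, SLC16A5 and SLC16A6 rose. Of 13 other SLC16 and sodium-coupled carrier genes 8 could be tested, of which 3 rose, 1 fell and 4 did not pass; the median log2 fold change was 0.68, beside 0.02 over all tested genes. These figures include SLC16A10 and SLC16A12, which reached the filter on low counts (0.838 CPM) in all 3 libraries of 1 group but in 0 and 1 of the other, so they entered the test through the group where they were high and support nothing here. SLC16A4, an orphan member of the family, was at 19.4, 18.8 and 22.0 CPM with glucose and at 59.1, 85.5 and 78.0 CPM without, a log2 fold change of 1.88 ± 0.21 (SE; adjusted p = 1.61e-04, edgeR). Its groups were far apart. SLC16A5 (MCT6) went from 21.0 ± 3.38 to 42.7 ± 7.23 CPM (SD, n = 3 per group) and passed (adjusted p = 0.00541, edgeR). SLC16A6 (MCT7), a carrier of ketone bodies, went from 6.98 ± 2.77 to 17.0 ± 4.47 CPM, but missed the threshold when replicate 2 or 3 with glucose was left out (adjusted p = 0.0506 and 0.0520, edgeR). The gene called lower was SLC16A10, a carrier of aromatic amino acids, with 23, 17 and 19 counts with glucose and 3, 10 and 3 without. It did not pass on leaving out replicate 1 or 2 with glucose, or 1 or 3 of the starved cells (adjusted p = 0.110, 0.0636, 0.1 and 0.118, edgeR). SLC16A8, SLC16A11, SLC5A8 and SLC5A12 were at 0 in all libraries.

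Among other lactate dehydrogenase genes only UEVLD was tested, and it did not pass (log2 fold change 0.13). LDHD, the mitochondrial enzyme for D-lactate, had 2, 2 and 0 counts with glucose and 6, 30 and 17 without. The ratio of pooled counts, 53 against 4, was 11.3 relative to scaled library totals (exact 95% interval 4.16 to 43.0). SLC16A14, another orphan carrier, had 0, 2 and 1 against 7, 24 and 10 counts, a ratio of 11.7 (3.72 to 58.8). In both genes the libraries without glucose were higher and differed severalfold among themselves; both fell short of the filter.

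Of 11 genes of basigin's family, ligands and membrane partners 5 rose, none fell and 6 did not pass, with a median log2 fold change of 0.70. Over all tested genes 11.6% rose and 10.7% fell. ITGA3, an integrin chain, had a log2 fold change of 1.52 ± 0.21, SLC3A2, the heavy chain of amino acid exchangers, 1.10 ± 0.21, and PPIB, a cyclophilin of the endoplasmic reticulum that binds basigin, 1.0 ± 0.22 (adjusted p = 5.20e-04, 0.00305 and 0.00713, edgeR). SLC7A5, the light chain that pairs with SLC3A2, did not pass (−0.39), nor did PPIA, the other cyclophilin ligand (−0.11). EMB, the embigin gene, had 27, 19 and 63 counts with glucose and 105, 74 and 99 without, or 3.82, 1.82 and 4.43 against 9.96, 5.66 and 7.29 CPM. It was thus low in both groups, but higher without glucose (log2 fold change 1.17 ± 0.37, adjusted p = 0.0393, edgeR). That call was lost on leaving out replicate 1 or 2 with glucose (0.0533 and 0.121) or replicate 1 or 3 of the starved cells (0.139 and 0.0869). The number of partners that rose was 3 when either replicate 2 with glucose or replicate 1 of the starved cells was left out; in the latter case the median was 0.17.

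**Figure D4:**
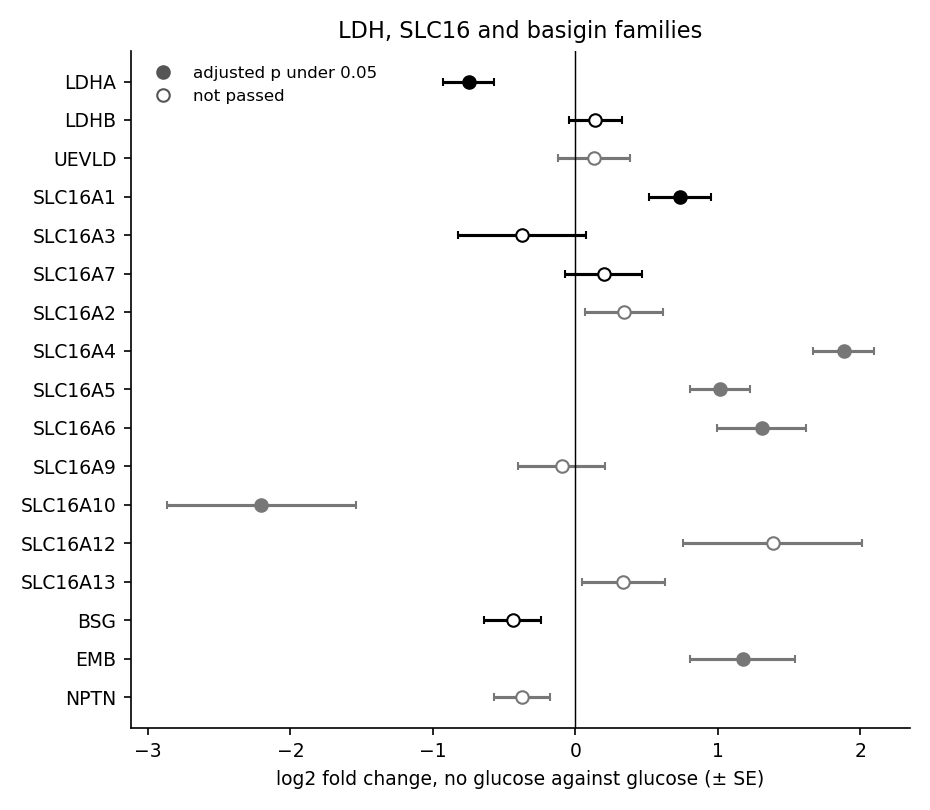
Log2 fold change without glucose against with glucose (horizontal axis, SE as bars) of the tested LDH, SLC16 and basigin family genes; black points are the members, grey points their relatives, and filled points have an adjusted p under 0.05. SLC16A1, SLC16A4, SLC16A5, SLC16A6 and EMB lie to the right as filled points, LDHA and SLC16A10 to the left.

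Upstream of LDH, the enzymes from glucose 6-phosphate to pyruvate fell in 5 of 14 tested cases and rose in none (median log2 fold change −0.41). Over all tested genes 10.7% fell and 11.6% rose. PGAM1, phosphoglycerate mutase, had −1.19 ± 0.22, PKM, pyruvate kinase, −0.76 ± 0.19 and TPI1, triose phosphate isomerase, −0.79 ± 0.19 (adjusted p = 0.00271, 0.0122 and 0.0123, edgeR). Of these, PKM and TPI1 were near the −0.75 of LDHA, and PGAM1 was lower. The number that fell was 3 when replicate 1 or 3 of the starved cells was left out, and without the former 1 enzyme rose, ENO3. Of 15 tested genes of mitochondrial pyruvate entry and use 3 rose and 2 fell (median −0.23), beside 11.6% and 10.7% of all tested genes. PDK4, a kinase that switches off pyruvate dehydrogenase, fell with a log2 fold change of −2.26 ± 0.23 (adjusted p = 7.04e-05, edgeR). The subunits of the mitochondrial pyruvate carrier differed in sign, at 1.09 ± 0.31 for MPC1 and −0.64 ± 0.19 for MPC2 (adjusted p = 0.0241 and 0.0279, edgeR). MPC1 missed the threshold when replicate 2 with glucose (0.0887) or replicate 3 of the starved cells (0.119) was left out, and MPC2 only held without replicate 1 with glucose (0.0625 to 0.0771 otherwise). In this list 0 to 2 genes rose and 1 or 2 fell when 1 library was left out.

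Of the 9 tested genes of the shuttles that, like LDH, turn cytosolic NADH back into NAD+, 2 rose and 2 fell (median −0.25). Over all tested genes 11.6% rose and 10.7% fell, so with 9 genes these counts say little about the shuttles. GOT1, the cytosolic aspartate aminotransferase, and GPD1L, related to glycerol 3-phosphate dehydrogenase, rose by 1.58 ± 0.19 and 1.28 ± 0.22 on the log2 scale (adjusted p = 2.16e-04 and 0.00185, edgeR). SLC25A11, the carrier of malate and oxoglutarate, had −0.95 ± 0.20 (adjusted p = 0.00465, edgeR). The number that fell was 1 when replicate 2 with glucose, or replicate 1 or 2 of the starved cells, was left out.

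**Figure D5:**
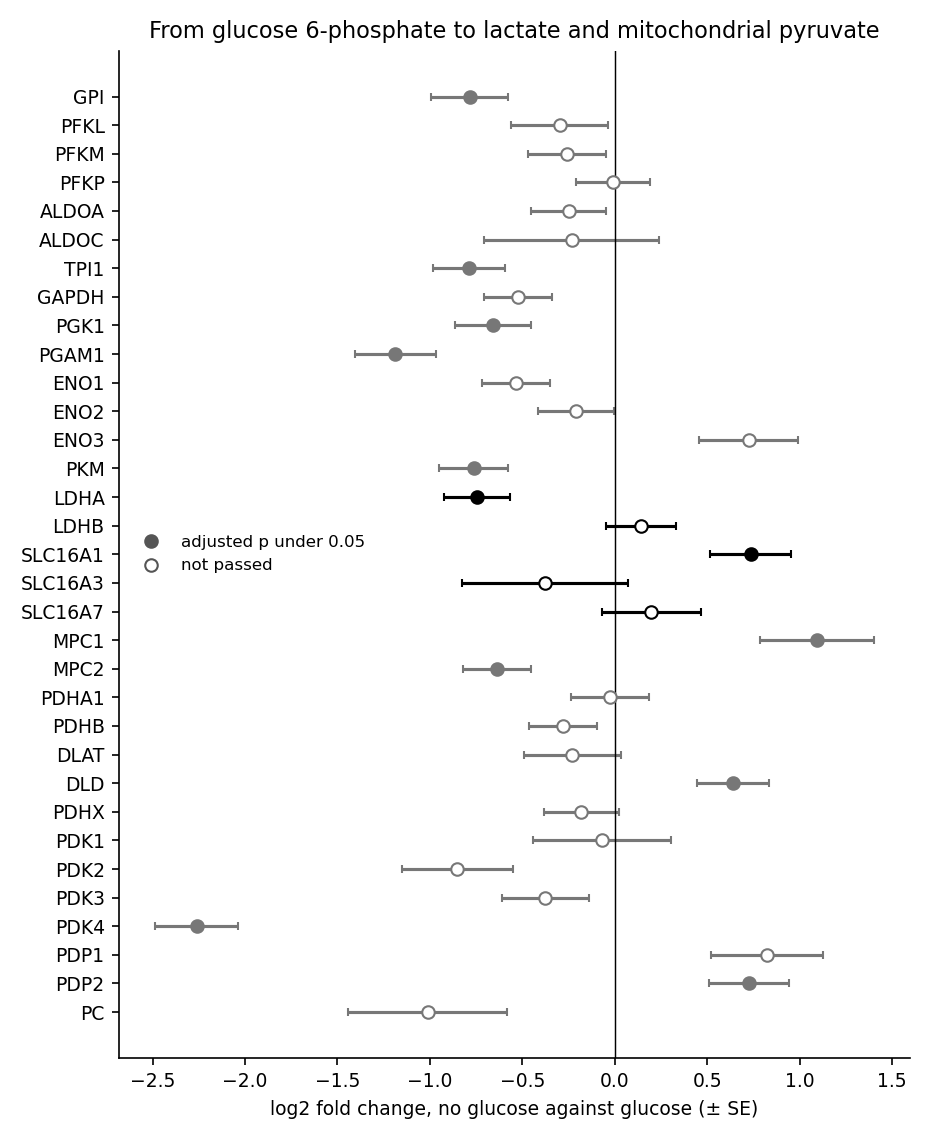
Log2 fold change without glucose against with glucose (horizontal axis, SE as bars) of tested genes in the order of the pathway, from glucose 6-phosphate down to LDH, the carriers and mitochondrial pyruvate use; black points are members, filled points have an adjusted p under 0.05. From GPI to LDHA all filled points lie to the left of 0, and SLC16A1 lies to the right.

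Hypoxia-inducible factors and MYC are known activators of LDHA, and the former of SLC16A3. Of 18 tested other targets of hypoxia-inducible factors, 7 rose and 5 fell (median log2 fold change 0.49). The corresponding shares over all tested genes were 11.6% and 10.7%. NDRG1, a stress-responsive growth regulator, and BNIP3L, a mitophagy receptor, had log2 fold changes of 1.87 ± 0.23 and 1.76 ± 0.22, whereas HILPDA, a lipid droplet protein, had −1.23 ± 0.19 (adjusted p = 2.27e-04, 2.65e-04 and 9.56e-04, edgeR). With 1 library left out, 4, 3 and 4 rose when it was replicate 2 or 3 with glucose or replicate 3 of the starved cells; 3 fell when it was replicate 1 or 3 with glucose or that same starved library. Of the 8 tested transcription factor genes that act on these promoters 1 passed and 7 did not (median 0.07). Among all tested genes 22.3% passed. FOXM1, a factor of dividing cells that also acts on LDHA, fell with −2.04 ± 0.20 (adjusted p = 6.66e-05, edgeR). HIF1A had 0.15 ± 0.19 and MYC −0.59 ± 0.21 (adjusted p = 0.603 and 0.0652, edgeR). MYC passed in 1 of 12 alternatives, the DESeq2 Wald test (−0.61, adjusted p = 0.0335), and HIF1A in none.

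The genes closest to LDHA and SLC16A1 in pattern were sought among 10000 tested genes that averaged 50 or more counts, by the root mean square difference of log2 CPM profiles centred over the 6 libraries. For LDHA these were NAA38, PROCR and ARHGDIA, with differences of 0.029, 0.045 and 0.051. NAA38 was at 182, 158 and 165 CPM with glucose and at 93.8, 104.7 and 102.5 CPM without. For SLC16A1 they were RSF1, PLA2G12A and ACCS (0.039, 0.041 and 0.092). RSF1 was at 121, 152 and 167 CPM with glucose and at 288, 196 and 235 CPM without. It was chosen for its likeness to SLC16A1 in these same libraries. The shift between groups and the order of libraries that it shares with SLC16A1 are thus no separate result. Each profile rests on 6 libraries only.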

How the data were processed

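The deposited values are raw counts of reads per gene, for which the submitters' processing notes name STAR, HTSeq and the build hg19. Which versions, annotation and strand setting the authors used is not given in the sources used here. A RefSeq table of GRCh38.p14 gave symbols for 19178 of 19240 genes, and the 5 HTSeq summary lines (no gene, ambiguous, not unique and the like, 55.3% to 56.9% of the table) stayed out. The test was edgeR's (4.0.16) quasi-likelihood F test (TMM scaling, filterByExpr at a minimum count of 10, no covariate, two-sided), with Benjamini-Hochberg adjustment over the 11886 genes kept. SE was worked back from the F statistic (absolute log2 fold change over its root) and is approximate. CPM was computed here as counts per 1000000 of the scaled total. The code was tested on simulated data.

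Shares, count ratios and summed levels were compared by a two-sided exact permutation test over libraries. A count of 3 or fewer over a group was read as no more than the floor. Intervals and floors cover counting error only, since no molecular identifiers are described. Alternatives were DESeq2 1.42.0, other scalings and filters, a replicate block and leaving out each library. Scaling, block and leave-out alternatives of the summed levels were added after seeing the data.

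The members and lists were chosen with earlier results of these data known. Genes named are the 7 members, the 3 genes nearest in pattern to LDHA and to SLC16A1, and from each pathway list the 3 called genes with the smallest p; any other gene with a value was chosen after its values were seen. Some genes of the lists are not reported here. The 10 pathway lists cover other lactate dehydrogenases, other monocarboxylate carriers, basigin partners, metalloproteinases, glycolysis, mitochondrial pyruvate use, NADH shuttles, hypoxia-inducible factor targets, proton and bicarbonate handling, and regulators; 6 marker lists cover A549 epithelium, NRF2 activity, fibroblasts, leukocytes, endothelium and alveolar type II cells.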

Additional observations from a re-analysis of the deposited data

How the results depend on the processing

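LDHA kept its direction and passed in 11 of 12 alternatives, and SLC16A1 kept its direction in all 12 and passed in 6; LDHB, SLC16A3, SLC16A7 and BSG passed in none of theirs. Same-numbered libraries did not deviate together (r = −0.27, −0.12 and 0.04 over genes for replicates 1, 2 and 3), so the numbers were not taken to pair them. With a replicate block no member rose and none fell, that is 0 and 0: LDHA had −0.75 (adjusted p = 0.0505) and SLC16A1 0.72 (0.0839). The block left 984 genes higher and 911 lower over the table, and 10 in place of 18 genes of the pathway lists lower; the cause was not tested, beyond the fewer residual degrees of freedom. On leaving out 1 library the genes called were 860 to 1292 higher and 781 to 1232 lower (1376 and 1276 with all), the members that rose 0 to 1, and the genes of the pathway lists 12 to 20 higher and 11 to 14 lower (22 and 18 with all); fewer libraries entered these fits. The log2 fold change of SLC16A1 then ran from 0.56 to 0.86. The LDHA share differed by −17.3 to −14.3 percentage points and the log2 BSG ratio by −1.22 to −0.86 in the same leave-outs. Fewer than 40 counts per library limit SLC16A3, and 2 counts per group LDHC.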

Other observations

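Lactate leaves the cell with a proton, and 6 genes of proton and bicarbonate handling could be tested. Of these 2 fell, beside 10.7% of all tested genes. The median log2 fold change was −0.24, and 0.17 when only genes averaging 20 or more counts were tested. SLC4A4, a sodium bicarbonate cotransporter, fell with a log2 fold change of −1.66 ± 0.36 (adjusted p = 0.00657, edgeR). CA12, a carbonic anhydrase of the cell surface, fell with −0.64 ± 0.20 (adjusted p = 0.0375, edgeR), but passed on leaving out a library only without replicate 3 with glucose (0.0528 to 0.138 otherwise). CA9, the hypoxia-induced carbonic anhydrase, had 4 counts with glucose and 1 without.

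Basigin was first known as an inducer of metalloproteinases. Of 6 metalloproteinase genes only MMP2 and MMP15 were tested. MMP2, a gelatinase, had 0, 0 and 9 counts with glucose and 14, 30 and 25 without (log2 fold change 2.75 ± 0.86, adjusted p = 0.0371, edgeR). It reached the filter on low counts in the group without glucose alone, that is in 3 libraries against 0, so it entered the test through the group where it was high and its call supports nothing. The call missed the threshold whenever a library other than replicate 3 with glucose was dropped (0.0596 to 0.107). MMP15, a membrane-type metalloproteinase, did not pass (log2 fold change −0.60, adjusted p = 0.374, edgeR). The median of this pair was 1.08. It turned to −0.60 when only genes averaging 20 or more counts were tested, which leaves MMP15 alone. The filter was applied anew on leaving out a library, and the list median was 0.11 without replicate 1 and 0.40 without replicate 3 with glucose. MMP2 was at 2.21 or more and MMP15 at −0.96 or more in every leave-out. A median of the pair could thus not be so low, and other genes of the list had entered.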
